A study of Homo sapiens with 24 samples.

Results

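The 9 genes described here encode ATP-binding cassette (ABC) transporters linked to drug resistance: ABCB1, ABCB6, ABCC1, ABCC2, ABCC3, ABCC4, ABCC5, ABCC10 and ABCG2. They were listed by name, and each symbol matched 1 entry among the 39786 genes of the deposited count table. The series sequenced messenger RNA of 2 human cancer cell lines in 24 libraries, the bladder carcinoma line 5637 and the ovarian carcinoma line OVCAR8. Each line was used as parental cells and as a derivative resistant to neratinib (NR), an irreversible inhibitor of the kinases of EGFR, ERBB2 and ERBB4. Cells received neratinib for 24 h, at 600 nM in 5637 and at 1 µM in OVCAR8, or control treatment, which gave 4 groups per line: parental control, parental neratinib, NR control and NR neratinib. NR cells had been without the drug for 1 week when they were plated, so NR controls are resistant cells off neratinib, and the labels do not say whether an NR line is a single clone. Each group holds 3 libraries from dishes seeded together, which may be technical replicates of 1 culture, and p-values then measure only the spread between these dishes.

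ABC transporters use ATP hydrolysis to move substrates across membranes. ABCB1 (P-glycoprotein, MDR1) and ABCG2 (BCRP) pump many unconjugated hydrophobic drugs out of cells, and kinase inhibitors are among the compounds that bind both. The ABCC or MRP proteins ABCC1, ABCC2 and ABCC3 export glutathione, glucuronide and sulphate conjugates, ABCC4 and ABCC5 export cyclic nucleotides and nucleotide analogues, ABCC10 (MRP7) exports taxanes among other agents, and ABCB6 is known for porphyrin transport. Transcript levels are reported, and neither protein nor transport was measured.

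Promoter sequences are shown for members on which the comparisons turn: ABCG2 and ABCC10, which showed the largest rise and the largest fall in NR against parental 5637 cells off the drug, ABCB6, which neratinib moved in opposite directions in the 2 lines, and ABCB1, which only OVCAR8 expressed above the detection limit. RefSeq windows of 250 bases before to 50 bases after a transcript start (GRCh38.p14) were matched by symbol for 7 of the 9 members. ABCC1 and ABCC3 had no entry. All 4 windows are written 5′ to 3′ along the gene, and capitals mark letters matching any of 4 motifs searched on both strands.
ABCG2, chr4:88158810-88159109, minus strand, 1 of 5 annotated starts: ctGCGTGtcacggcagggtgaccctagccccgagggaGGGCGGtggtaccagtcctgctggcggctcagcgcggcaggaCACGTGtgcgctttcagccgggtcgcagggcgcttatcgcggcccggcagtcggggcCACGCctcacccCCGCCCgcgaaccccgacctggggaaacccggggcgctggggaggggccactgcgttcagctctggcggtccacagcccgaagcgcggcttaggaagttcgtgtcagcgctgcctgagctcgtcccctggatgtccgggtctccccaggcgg
ABCC10, chr6:43427291-43427590, plus strand, 1 of 2 annotated starts: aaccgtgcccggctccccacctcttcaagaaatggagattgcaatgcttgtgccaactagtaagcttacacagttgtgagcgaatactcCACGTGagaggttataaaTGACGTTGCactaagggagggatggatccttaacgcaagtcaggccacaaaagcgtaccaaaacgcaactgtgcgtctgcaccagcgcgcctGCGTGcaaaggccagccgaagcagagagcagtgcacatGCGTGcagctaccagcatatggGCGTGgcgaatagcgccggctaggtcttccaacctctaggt
ABCB6, chr2:219218909-219219208, minus strand, 1 of 1 annotated start: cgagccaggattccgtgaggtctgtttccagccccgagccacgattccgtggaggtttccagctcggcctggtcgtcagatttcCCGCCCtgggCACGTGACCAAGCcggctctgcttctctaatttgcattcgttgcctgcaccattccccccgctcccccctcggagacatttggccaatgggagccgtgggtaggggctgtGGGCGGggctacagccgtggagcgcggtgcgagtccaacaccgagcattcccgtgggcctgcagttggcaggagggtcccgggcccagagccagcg
ABCB1, chr7:87600835-87601134, minus strand, 1 of 2 annotated starts: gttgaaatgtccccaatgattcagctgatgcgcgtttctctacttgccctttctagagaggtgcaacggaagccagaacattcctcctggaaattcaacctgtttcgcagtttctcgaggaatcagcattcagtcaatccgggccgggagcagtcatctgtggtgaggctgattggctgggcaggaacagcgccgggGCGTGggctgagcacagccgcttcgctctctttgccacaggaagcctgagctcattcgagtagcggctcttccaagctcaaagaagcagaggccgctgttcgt

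The motifs were the antioxidant response element TGACNNNGC, the xenobiotic response element GCGTG, the E-box CACGTG and the GC box GGGCGG, which 13.3%, 36.5%, 7.26% and 45% of 35116 RefSeq promoter windows of the same length hold. ABCB6 holds TGACCAAGC 152 bases before its start, overlapping the end of an E-box, and a GC box on each strand. The ABCC10 window shown holds TGACGTTGC 143 bases before the start, an E-box and 3 copies of GCGTG. The other ABCC10 window holds 5 copies of GGGCGG and none of the other motifs. The ABCG2 window holds an E-box, GCGTG on each strand and GGGCGG on each strand, and no TGACNNNGC, although another of the 5 ABCG2 windows holds TGACTGGGC. The ABCB1 window holds GCGTG once and none of the other motifs. Such matches describe the letters of these windows and were not tested for binding.

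Library totals ran from 23.8 M to 48.5 M counts, and the levels below are CPM (counts scaled to a library total of 1 M) or RPKM (CPM per kilobase of gene length). Differences are log2 fold changes with their standard error (SE) from edgeR's quasi-likelihood test, which adds TMM scaling, so a ratio of CPM means can differ from the fitted fold change. Adjusted p-values are Benjamini-Hochberg values across the 18307 genes tested in 5637 or the 18072 tested in OVCAR8, and a difference is called at a value under 0.05. The biological coefficient of variation was 8.03% in 5637 and 13% in OVCAR8. In OVCAR8 1 library stood apart: in parental control replicate 2, genes over 8 kb held 14.1% of the counts against 20.4 to 21.2% elsewhere in the line, and the variation was 4.37% without it. In that library ABCC1, ABCC4, ABCC5 and ABCC10 stood at 0.601, 0.625, 0.62 and 0.617 of the mean of replicates 1 and 3. ABCC2, ABCG2 and ABCB1 stood at 0.57, 0.648 and 0.723 of it, while ABCB6 stood at 1.02. ABCC3 stood at 0.938, with only 9 to 14 counts a library in this group. OVCAR8 calls for the members, and OVCAR8 counts for the other gene lists, are therefore given with and without it. This setting was chosen after seeing the data for the 2 OVCAR8 comparisons that do not use its group. Some OVCAR8 values that were not called are given with all libraries only. In bulk RNA, fewer cells that express a gene and less RNA per cell cannot be told apart.

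ABCC1 was the most abundant of the 9 transcripts per length in 6 of the 8 groups, with mean levels of 16.9 to 29.7 RPKM in them. In the 5637 neratinib groups ABCC3 took the first place, at 25.6 RPKM in parental and 29.2 RPKM in NR cells, above ABCC1 at 21.1 and 18.7 RPKM. ABCC4, ABCC5 and ABCC10 formed a middle tier of 2.4 to 7.72 RPKM in every group. Within it, the libraries of ABCC4 and ABCC5 overlapped in 5637 NR neratinib and in 3 OVCAR8 groups, parental control, NR control and NR neratinib. ABCB6, ABCG2, ABCB1 and ABCC2 were low, with group means of at most 2.58 RPKM, reached by ABCG2 in 5637 NR neratinib, where its libraries overlapped those of ABCC10. Other neighbours in the order that overlapped were ABCC5 and ABCC3 in 5637 parental control, ABCG2 and ABCC2 in 5637 parental neratinib and in every OVCAR8 group, and ABCB6 and ABCB1 in both OVCAR8 parental groups. ABCC3 was the transcript whose rank differed most between the lines, since in OVCAR8 its mean lay between 0.0283 and 0.157 RPKM. ABCC2 stayed at 0.11 to 0.239 RPKM in all groups.

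**Figure D1:**
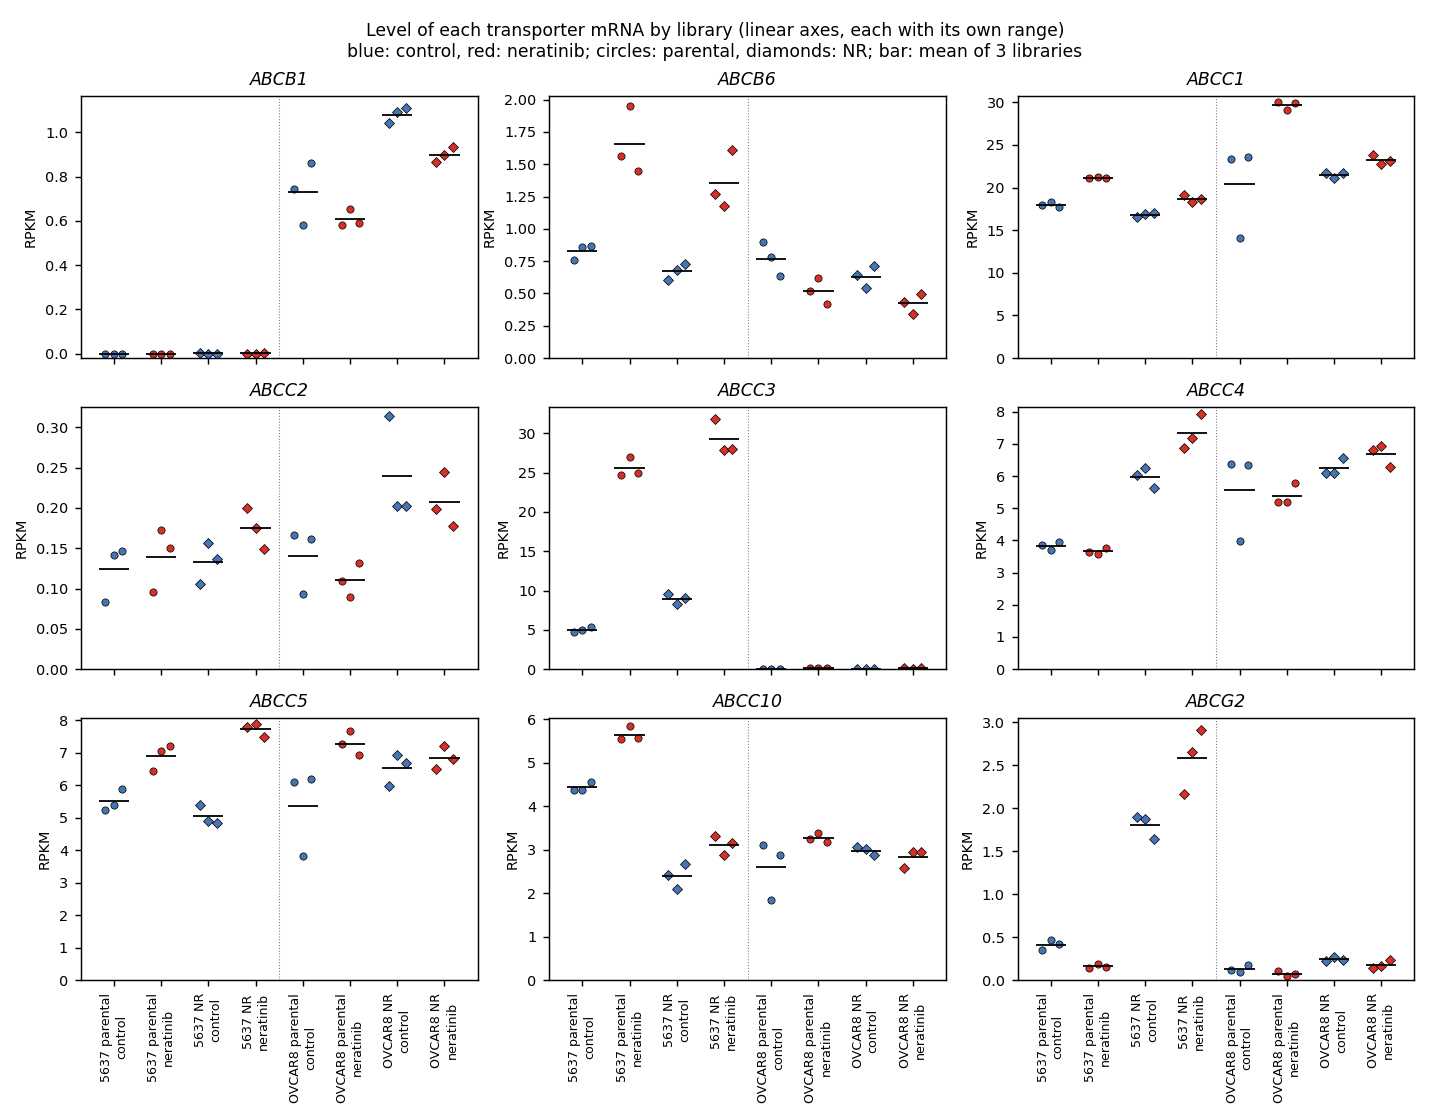
Level of each transcript in RPKM (linear axes with separate ranges) in the 24 libraries by group, with circles for parental and diamonds for NR cells, blue for control and red for neratinib, and a bar at the mean of 3 libraries. ABCC3 in 5637 rises from 5 to 25.6 RPKM with the drug in parental cells, ABCG2 is highest in 5637 NR cells, and ABCB1 is seen in OVCAR8 alone.

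ABCB1 (ENSG00000085563.10, hg19 chromosome 7, 87133175 to 87342611), the P-glycoprotein pump, was essentially undetected in 5637. All 6 parental libraries held 0 counts, and 1 count was found in NR control replicate 1 and in NR neratinib replicate 3. A count of 0 allows levels up to 3 counts, which is 0.0693 to 0.0861 CPM in these libraries, so no change of ABCB1 with resistance was detectable in 5637 at this depth. In OVCAR8 the control libraries held 4.13, 3.22 and 4.77 CPM in parental and 5.78, 6.04 and 6.18 CPM in NR cells. On neratinib they held 3.22, 3.63 and 3.29 CPM in parental and 4.81, 4.98 and 5.18 CPM in NR cells. Every NR library lay above every parental library of the same treatment. The NR level was higher without drug by a log2 fold change of 0.53 (SE 0.12, edgeR adjusted p = 0.013) and on drug by 0.60 (SE 0.12, edgeR adjusted p = 0.0023). The first call was lost without NR control replicate 3 (0.50, edgeR adjusted p = 0.06) and held without parental control replicate 2 (0.43, edgeR adjusted p = 0.0084). The difference on drug was 0.58 without parental control replicate 2 (edgeR adjusted p = 6e-05). In parental cells neratinib lowered ABCB1 by a log2 fold change of -0.35 (SE 0.12, edgeR adjusted p = 0.039), a call lost without any of 5 of the 6 libraries (edgeR adjusted p = 0.057 to 0.16), with library size scaling (0.16) and with no filter on low counts (0.16). The exception was parental control replicate 2, without which it was -0.44 (edgeR adjusted p = 0.0036). The gene overlaps RUNDC3B, whose level was 2.36 to 2.76 CPM over the OVCAR8 groups.

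ABCG2 (ENSG00000118777.6, hg19 chromosome 4, 89011416 to 89152474), the breast cancer resistance protein BCRP, showed the largest difference between resistant and parental 5637 cells among the 9 genes. Without drug, its levels were 1.69, 2.29 and 2.02 CPM in parental and 9.2, 9.12 and 7.95 CPM in NR cells. On neratinib, they were 0.703, 0.897 and 0.747 CPM in parental and 10.5, 12.9 and 14.1 CPM in NR cells. The parental libraries on drug held only 26 to 36 counts of ABCG2. All 4 groups of 5637 were apart, with parental neratinib lowest and NR neratinib highest. NR cells were higher without drug by 2.11 (SE 0.14, edgeR adjusted p = 2.6e-09) and on drug by 3.95 on the log2 scale (SE 0.15, edgeR adjusted p = 7.2e-12), where the ratio of CPM means was 16. Neratinib moved the transcript in opposite directions in the 2 states: it fell in parental cells, with a log2 fold change of -1.46 (SE 0.18, edgeR adjusted p = 7.7e-06), and rose in NR cells by 0.39 (SE 0.12, edgeR adjusted p = 0.015). The difference between these responses was itself called, at 1.84 (SE 0.21, edgeR adjusted p = 2.8e-05). The rise in NR cells was lost without NR control replicate 3 or NR neratinib replicate 3 (edgeR adjusted p = 0.065 and 0.063, with 0.33 the lowest value), while the other 4 calls held at each omission of 1 library.

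In OVCAR8 the ABCG2 transcript was near the lower end of what was counted, at 11 to 51 counts a library. Without drug it stood at 0.6, 0.464 and 0.832 CPM in parental and 1.1, 1.3 and 1.13 CPM in NR cells. On neratinib it stood at 0.509, 0.227 and 0.368 CPM in parental and 0.671, 0.818 and 1.12 CPM in NR cells. Again the NR libraries lay above the parental libraries of each treatment. On drug the difference passed the test at 1.32 (SE 0.31, edgeR adjusted p = 0.0069), and without drug it was 0.83 and did not (edgeR adjusted p = 0.092). The value on drug was also 1.32 without parental control replicate 2 (edgeR adjusted p = 0.00081), and the value off drug was then 0.70 (edgeR adjusted p = 0.11). The parental response to neratinib was a fall of -0.91 on the log2 scale (SE 0.32, edgeR adjusted p = 0.049), with overlapping groups. It became -1.05 without parental control replicate 2 (edgeR adjusted p = 0.015) but lost its call without control replicate 1 or 3 or neratinib replicate 2 or 3 (edgeR adjusted p = 0.062 to 0.18), with library size scaling (0.078) and with no filter on low counts (0.065).

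ABCC1 (ENSG00000103222.14, hg19 chromosome 16, 16043434 to 16236931), the exporter of glutathione conjugates also called MRP1, was abundant in both lines. In 5637 the libraries held 136, 138 and 134 CPM in parental control and 160 CPM in each of the parental neratinib libraries. NR controls held 126, 128 and 129 CPM, and NR libraries on drug held 145, 139 and 141 CPM. The 4 groups did not overlap, yet no difference exceeded a log2 fold change of 0.21 in size. NR cells on drug were lower by -0.21 (SE 0.05, edgeR adjusted p = 0.0017). The parental rise with neratinib, 0.13 (SE 0.05, edgeR adjusted p = 0.045), was lost without any of the 6 libraries compared (edgeR adjusted p = 0.086 to 0.16), with DESeq2 size factors (0.066) and with no filter on low counts (0.14). In OVCAR8 neratinib raised ABCC1 from 177, 107 and 179 CPM to 227, 221 and 227 CPM in parental cells, by 0.46 (SE 0.12, edgeR adjusted p = 0.014). The 107 CPM belong to the library that stood apart, and without it the rise was 0.29 (edgeR adjusted p = 2.3e-06). OVCAR8 NR cells held 165, 160 and 164 CPM without and 180, 173 and 175 CPM with the drug, a drug response that was not called (0.09). With parental control replicate 2 left out, NR cells were called lower than parental cells, by -0.12 off drug (edgeR adjusted p = 0.026) and by -0.33 on drug (edgeR adjusted p = 4.6e-08), whereas with all libraries neither passed.

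ABCC2 (ENSG00000023839.6, hg19 chromosome 10, 101542489 to 101611949), the apical conjugate exporter MRP2, was sparse in both lines, with 20 to 84 counts a library. No ABCC2 comparison within 5637 passed the test, and levels there ran from 0.523 to 1.25 CPM. In OVCAR8 on neratinib, parental libraries held 0.678, 0.557 and 0.822 CPM and NR libraries 1.24, 1.53 and 1.1 CPM. NR cells were higher in all 3 libraries, by 0.94 (SE 0.26, edgeR adjusted p = 0.016), or at adjusted p = 0.0021 without parental control replicate 2. The call was lost without parental neratinib replicate 2 (edgeR adjusted p = 0.075) or NR neratinib replicate 2 (0.073), where the value was 0.80. Without drug the difference was 0.74 and was not called (edgeR adjusted p = 0.09), nor was the 0.58 without parental control replicate 2 (edgeR adjusted p = 0.12).

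ABCC3 (ENSG00000108846.11, hg19 chromosome 17, 48712138 to 48769613), a basolateral exporter of glucuronide conjugates also called MRP3, was the member that neratinib raised most, and it was raised in both lines and both states. In 5637 parental cells it went from 45.5, 47.3 and 51.3 CPM to 238, 260 and 240 CPM. In 5637 NR cells it went from 91.3, 79.6 and 86.6 CPM to 306, 268 and 269 CPM. The drug groups lay far above the control groups, and NR controls lay between them and the parental controls. The rise was 2.25 in parental cells (SE 0.08, edgeR adjusted p = 7.5e-12) and 1.59 in NR cells (SE 0.08, edgeR adjusted p = 3.3e-10). It was smaller in NR cells, by -0.66 (SE 0.11, edgeR adjusted p = 0.00053), from a start that was higher in NR controls by 0.82 (SE 0.08, edgeR adjusted p = 1.9e-07). On drug the 2 states differed by 0.16, which was not called (edgeR adjusted p = 0.076), and was called without NR neratinib replicate 2 (edgeR adjusted p = 0.045) or replicate 3 (0.03), with library size scaling (0.19, edgeR adjusted p = 0.026) and with no filter (0.17, edgeR adjusted p = 0.038).

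In OVCAR8 ABCC3 was a rare transcript, and the direction was the same. Parental libraries went from 0.336, 0.261 and 0.22 CPM, which is 9 to 14 counts, to 1.33, 1.65 and 1.56 CPM on neratinib, which is 47 to 80 counts. NR libraries went from 0.326, 0.419 and 0.359 CPM to 0.832, 0.818 and 0.926 CPM. Every drug library lay above every control library. The parental rise was 2.37 (SE 0.21, edgeR adjusted p = 1.2e-05), or 2.38 when parental control replicate 2 was left out. The NR rise was 1.22 (SE 0.22, edgeR adjusted p = 0.02) and lost its call without any of the 6 NR libraries (edgeR adjusted p = 0.058 to 0.12), but it was 1.22 at adjusted p = 0.0024 by edgeR without parental control replicate 2. On drug, NR cells held less ABCC3 than parental cells, by -0.78 (SE 0.18, edgeR adjusted p = 0.0061), or -0.79 without that library. The difference between the 2 rises was -1.14 (SE 0.32, edgeR adjusted p = 0.044), or -1.16 without that library (edgeR adjusted p = 0.038). It was lost without any of 10 of the 12 libraries (edgeR adjusted p = 0.063 to 0.11; the exceptions were parental control replicates 1 and 2), with DESeq2 (0.072) and with no filter on low counts (0.16).

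ABCC4 (ENSG00000125257.9, hg19 chromosome 13, 95672083 to 95953687), the cyclic nucleotide exporter MRP4, was higher in resistant 5637 cells. Parental libraries held 31.3, 29.8 and 31.8 CPM without and 29.4, 28.8 and 30.4 CPM with the drug. NR libraries held 48.7, 50.6 and 45.5 CPM without and 55.4, 58 and 64.1 CPM with the drug. The NR groups lay above both parental groups, which overlapped each other. NR cells were higher by 0.62 without drug (SE 0.06, edgeR adjusted p = 4.5e-07) and by 0.97 on drug (SE 0.06, edgeR adjusted p = 3.1e-09). Neratinib lowered the transcript in parental cells, -0.17 (SE 0.06, edgeR adjusted p = 0.033), and raised it in NR cells, 0.17 (SE 0.06, edgeR adjusted p = 0.042), and the difference of 0.34 was called (SE 0.09, edgeR adjusted p = 0.017). Each of the 2 smaller calls was lost in single omissions, the parental fall without control replicate 1 or 3 or neratinib replicate 1 or 2 (edgeR adjusted p = 0.082 to 0.094) and the NR rise without NR control replicate 1 or 3 or NR neratinib replicate 3 (0.095 to 0.15). The parental fall was -0.07 with library size scaling (edgeR adjusted p = 0.44) and lost its call with no filter (0.17), as the NR rise did (0.076). In OVCAR8 the libraries lay between 32.2 and 56.1 CPM and no difference was called with all libraries. Without parental control replicate 2, whose level was the lowest, the OVCAR8 parental response was -0.29 (edgeR adjusted p = 0.00027), NR cells on drug were higher by 0.33 (edgeR adjusted p = 1.2e-05; with all libraries 0.35 at adjusted p = 0.028 by DESeq2), and the difference between the responses was 0.35 (edgeR adjusted p = 0.0013).

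ABCC5 (ENSG00000114770.12, hg19 chromosome 3, 183637722 to 183735803), the related nucleotide exporter MRP5, rose with the drug in 5637, and no difference between the states was called there. Levels without drug were 60, 61.6 and 67.2 CPM in parental and 61.6, 56 and 55.4 CPM in NR cells. On neratinib they were 73.7, 80.8 and 82.4 CPM in parental and 89.2, 90.1 and 85.6 CPM in NR cells. The drug libraries lay above the control libraries in each state. The rise was 0.22 in parental cells (SE 0.07, edgeR adjusted p = 0.011) and 0.49 in NR cells (SE 0.07, edgeR adjusted p = 2.5e-05), a difference of 0.27 that was not called (edgeR adjusted p = 0.067) and passed with DESeq2 (0.28, adjusted p = 0.035). The parental rise was lost without control replicate 1 (0.19, edgeR adjusted p = 0.058). The difference between the states on drug was 0.13 and passed with library size scaling (0.16, edgeR adjusted p = 0.043) or without NR neratinib replicate 3 (0.18, edgeR adjusted p = 0.044), as that between the responses did without the same library (0.33, edgeR adjusted p = 0.038). In OVCAR8 parental cells ABCC5 rose from 70, 43.6 and 70.7 CPM to 82.9, 87.5 and 79.2 CPM, by 0.35 (SE 0.13, edgeR adjusted p = 0.049). Without control replicate 2, at 43.6 CPM, the rise was 0.19 (edgeR adjusted p = 0.0083), and without any of the neratinib libraries it lost its call (edgeR adjusted p = 0.081 to 0.14), as it did with DESeq2 size factors (0.053). The overlapping antisense gene ABCC5-AS1 had at most 0.0083 CPM in any group.

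ABCC10 (ENSG00000124574.10, hg19 chromosome 6, 43395104 to 43418168), the taxane exporter MRP7, was called lower in resistant 5637 cells both with and without drug, and both calls held at each omission of 1 library. Without drug, parental libraries held 35.4, 35.4 and 36.8 CPM and NR libraries 19.5, 17 and 21.7 CPM. On neratinib, parental libraries held 44.8, 47.2 and 45 CPM and NR libraries 26.8, 23.2 and 25.5 CPM. No NR library reached any parental library. The difference was -0.90 without drug (SE 0.09, edgeR adjusted p = 3.4e-07) and -0.89 on drug (SE 0.09, edgeR adjusted p = 3.2e-07). Neratinib raised the transcript by 0.24 in parental cells (SE 0.09, edgeR adjusted p = 0.03) and by 0.25 in NR cells (SE 0.09, edgeR adjusted p = 0.036). Both rises were lost in several omissions, in parental cells without control replicate 1, 2 or 3 or neratinib replicate 1 or 2 (edgeR adjusted p = 0.053 to 0.11) and in NR cells without control replicate 1 or 2 or neratinib replicate 1 (0.09 to 0.18). DLK2, which overlaps ABCC10, had a mean of 15.3 CPM in parental and 3.88 CPM in NR cells without drug, and of 16.1 and 4.4 CPM on drug, and its part in the ABCC10 values was not tested. In OVCAR8, levels were 14.9 to 27.3 CPM, with DLK2 at 19.1 to 23.4 CPM over the groups, and no difference was called with all libraries. Without parental control replicate 2, NR cells on drug were lower by -0.18 (edgeR adjusted p = 0.013). The OVCAR8 parental response to neratinib was 0.24 with all libraries and 0.08 without that replicate, and was called in neither setting.

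ABCB6 (ENSG00000115657.8, hg19 chromosome 2, 220074490 to 220083712), a transporter linked to porphyrins, was the member whose parental response to neratinib was called in opposite directions in the 2 lines. In 5637 parental cells it rose from 3.96, 4.49 and 4.49 CPM to 8.13, 10.1 and 7.57 CPM. In 5637 NR cells it rose from 3.15, 3.53 and 3.79 CPM to 6.63, 6.12 and 8.38 CPM. Neither pair of groups overlapped. The rises were 0.89 (SE 0.14, edgeR adjusted p = 7.5e-05) and 0.88 (SE 0.14, edgeR adjusted p = 0.00017). In OVCAR8 parental cells it fell from 4.66, 4.06 and 3.3 CPM to 2.68, 3.22 and 2.16 CPM, with a log2 fold change of -0.67 (SE 0.19, edgeR adjusted p = 0.019), or -0.62 when parental control replicate 2 was left out (edgeR adjusted p = 0.0072). This fall was lost without control replicate 1 or neratinib replicate 1 or 3 (edgeR adjusted p = 0.059, 0.056 and 0.085). OVCAR8 NR libraries held 3.33, 2.81 and 3.69 CPM without and 2.26, 1.77 and 2.58 CPM with the drug, a difference of -0.60 that was not called with all libraries (edgeR adjusted p = 0.19) and was -0.62 without parental control replicate 2 (edgeR adjusted p = 0.015). The parental responses of the 2 lines differed by -1.57 (SE 0.24, edgeR adjusted p = 0.00012), or -1.52 without that library. In 5637 on drug, NR cells were lower by -0.33 (SE 0.13, edgeR adjusted p = 0.047), with overlapping groups. That call was lost without any of 4 libraries, parental neratinib replicates 1 and 2 and NR neratinib replicates 1 and 2 (edgeR adjusted p = 0.056 to 0.27), with DESeq2 (0.058), with DESeq2 size factors (0.056), with library size scaling (0.079) and with no filter (0.05). The gene overlaps ATG9A, at 55.8 to 106 CPM over the groups, and how reads in the overlap were assigned is not given in the sources used here.

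The first comparison asks what 24 h of neratinib did to the 9 transcripts in sensitive cells. In 5637, 5 of the 8 tested members rose, ABCC3, ABCB6, ABCC10, ABCC5 and ABCC1, and 2 fell, ABCG2 and ABCC4, while ABCC2 did not pass and ABCB1 was not tested. Among all genes 23.9% rose and 23.5% fell. The median change of the members was 0.17, and with library size scaling the median of all genes moved to 0.13 and the share of calls that rose to 64.2% from 50.4%. Leaving out any 1 library left 3 to 6 member calls, the fewest without parental control replicate 1. Calls among all genes then went from 8665 to between 7403 and 7778. In OVCAR8, ABCC3, ABCC1 and ABCC5 rose and ABCG2, ABCB6 and ABCB1 fell, 3 and 3 of 9, against 16.2% and 16.3% of all genes. There the library size scaling put 62.6% of calls on the higher side in place of 49.8%, with a median of all genes of 0.11. Omitting parental control replicate 2 added ABCC4 to the falls, which made 3 and 4 of 9 against 24.3% and 24.9% of all genes. Leaving out any 1 library left 2 to 7 OVCAR8 calls, the fewest without parental neratinib replicate 3. ABCB6 was the only member for which the parental responses of the 2 lines were called different with all libraries, lower in OVCAR8, where 4.83% of all genes were called lower and 5.46% higher. The lines received different doses, so line and dose cannot be told apart in this contrast. ABCB1 could not be fitted there, and without OVCAR8 parental control replicate 3 ABCC1 was called as well (0.47, edgeR adjusted p = 0.026).

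The same treatment in resistant cells raised 6 of 8 tested members in 5637 and lowered 0 by edgeR (0 at an unadjusted p under 0.05 and 0 by DESeq2), against 18.4% and 21.1% of all genes. Besides ABCC3, ABCB6 and ABCC5, these were ABCG2, ABCC10 and ABCC4, and ABCC1 (0.02) and ABCC2 (0.27) did not pass. With library size scaling the median of all genes moved to 0.12, the share of calls that rose went from 46.6% to 67.4%, and ABCC1 passed at 0.15 (edgeR adjusted p = 0.012). Leaving out any 1 library left 4 to 6 member calls, and 6260 to 7482 calls among all genes in place of 7230. In OVCAR8 ABCC3 rose and 0 members fell by edgeR (2 at an unadjusted p under 0.05, 0 by DESeq2), where 0.642% of all genes rose and 0.747% fell. Parental control replicate 2 is in neither group of this comparison and takes part through the shared estimate of the spread, the filter and the scaling. Without it, 9.39% of all genes rose and 11.9% fell, and ABCB6 and ABCB1 (-0.29, edgeR adjusted p = 0.044) were lower beside the higher ABCC3. The 5637 responses of the 2 states differed for ABCG2 and ABCC4, higher in NR cells, and for ABCC3, lower, 2 and 1 of 8 against 7.39% and 6.48% of all genes. In OVCAR8, ABCC3 was the 1 called, lower in NR cells, and 0 were higher by edgeR, at an unadjusted p under 0.05 or by DESeq2, with 4.62% of all genes higher and 4.21% lower (52.4% of calls higher, or 40.5% with library size scaling and a median of -0.10). When parental control replicate 2 was left out, where 17% were higher and 15.7% lower, ABCC1 (-0.20, edgeR adjusted p = 0.0047) and ABCC4 were called as well.

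**Figure D2:**
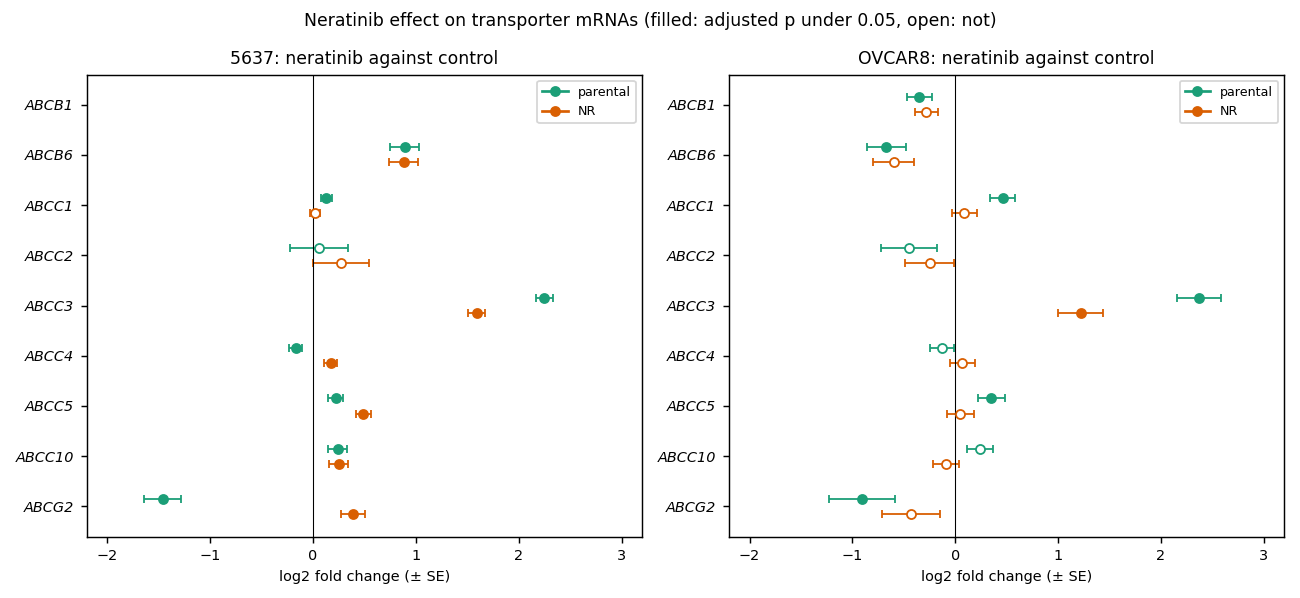
Log2 fold change of each transcript with neratinib against control (± SE, edgeR) in 5637 and OVCAR8, in green for parental and orange for NR cells, filled where the adjusted p was under 0.05. ABCC3 lies farthest to the right in all 4 comparisons (2.25, 1.59, 2.37 and 1.22), ABCG2 in 5637 lies on opposite sides of 0 in the 2 states, and ABCB6 on opposite sides in the 2 lines.

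The second question is what distinguishes resistant from parental cells, off and on the drug. In 5637 without drug, ABCG2, ABCC3 and ABCC4 were higher and ABCC10 was lower, 3 and 1 of 8, against 28.4% and 28% of all genes, and these 4 calls were made at every omission of a library. On drug, ABCG2 and ABCC4 were higher and ABCC10, ABCB6 and ABCC1 lower, 2 and 3 of 8, against 28.8% and 29.2% of all genes. These shares of members lie on both sides of those of all genes, and the median of the 8 members was -0.01 without and 0.14 with the drug. In OVCAR8 without drug ABCB1 was the 1 of 9 called higher and 0 were called lower by edgeR (0 at an unadjusted p under 0.05, 0 by DESeq2), against 4.94% of all genes higher and 4.91% lower. After omission of parental control replicate 2, where 11.4% were higher and 11.4% lower, ABCB1 remained higher and ABCC1 was lower. On drug ABCG2, ABCC2 and ABCB1 were higher and ABCC3 lower, 3 and 1 of 9, against 14.6% and 16.4%. Without that library 4 were higher and 3 lower, against 26.8% and 28.7%, with ABCC4 added to the higher and ABCC1 and ABCC10 to the lower members.

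**Figure D3:**
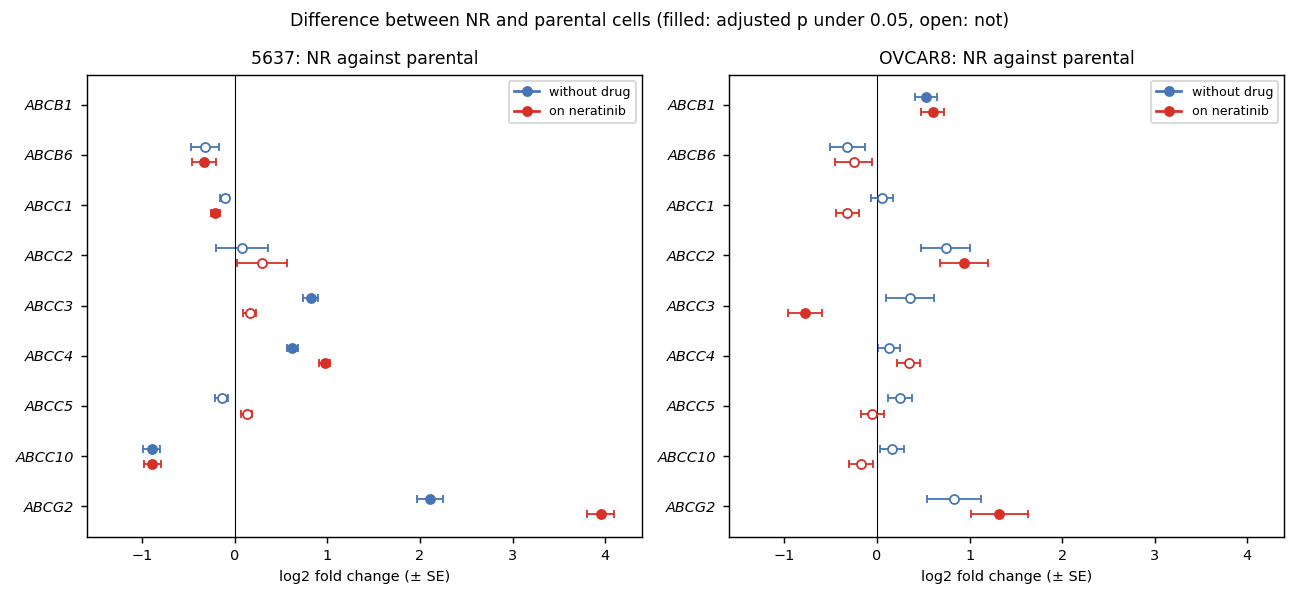
Log2 fold change of each transcript in NR against parental cells (± SE, edgeR) in 5637 and OVCAR8, in blue without drug and red on neratinib, filled where the adjusted p was under 0.05. ABCG2 in 5637 reaches 2.11 and 3.95, ABCC10 in 5637 lies at -0.90 and -0.89, and in OVCAR8 the called values run from -0.78 to 1.32.

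**Figure D4:**
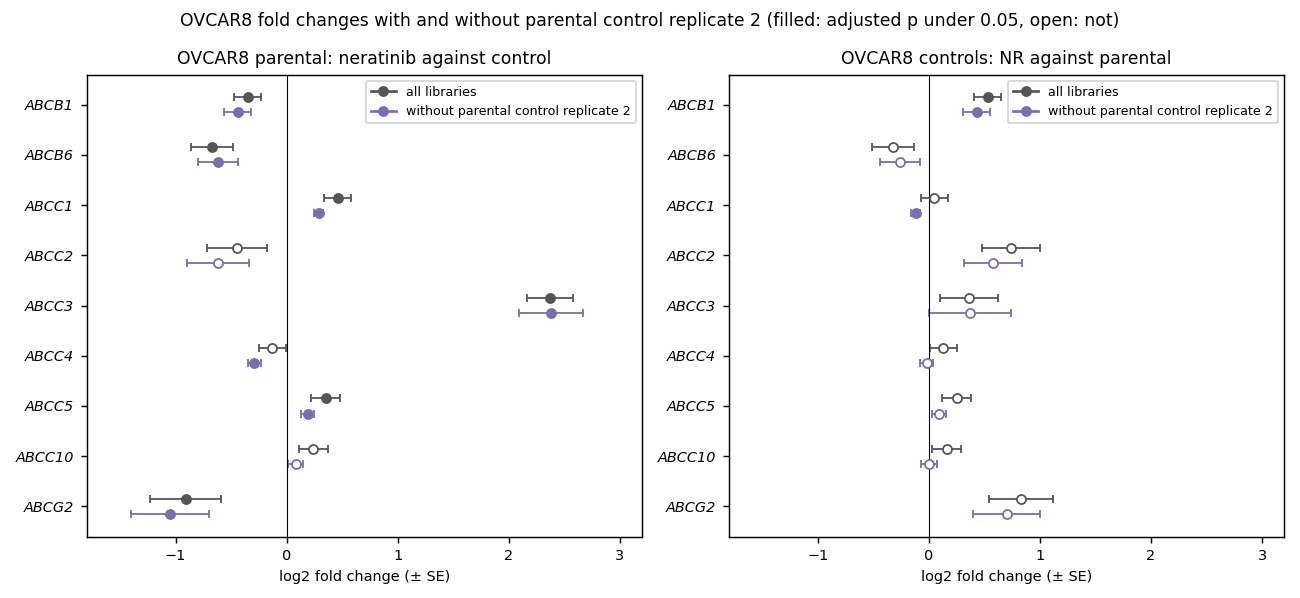
OVCAR8 log2 fold changes (± SE, edgeR) of the parental drug response and of NR against parental cells without drug, in grey with all libraries and purple without parental control replicate 2, filled where the adjusted p was under 0.05. Omission moves ABCC1 from 0.46 to 0.29 in the drug response and leaves ABCC3 near its value (2.37 and 2.38).

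The difference between resistant and parental cells itself differed between the lines for 3 members. For ABCG2 it was smaller in OVCAR8, by -1.31 (SE 0.30, edgeR adjusted p = 0.0015), and for ABCC4 also, by -0.51 (SE 0.14, edgeR adjusted p = 0.0072). For ABCC10 it was higher in OVCAR8, by 1.04 (SE 0.16, edgeR adjusted p = 2.2e-05). ABCC5, at 0.37 (edgeR adjusted p = 0.057), passed with DESeq2 (adjusted p = 0.04), with a filter of 1 CPM in 3 libraries (0.041), and without OVCAR8 NR control replicate 1 (0.45) or OVCAR8 parental control replicate 1 (0.44) or 3 (0.50). Among all genes 14.8% were higher and 18.1% lower in this contrast, and without parental control replicate 2 the 3 values were -1.43, -0.67 and 0.88. Untreated parental cells of the lines differed too: OVCAR8 held more ABCB1, at least 55.3-fold against a floor of 3 counts per library (60.9-fold without that replicate), and more ABCC4, by 0.53 (edgeR adjusted p = 6.2e-05). OVCAR8 held less ABCC3, by -7.45 (edgeR adjusted p = 1.8e-22), less ABCG2, by -1.65 (edgeR adjusted p = 3.9e-07), and less ABCC10, by -0.78 (edgeR adjusted p = 1.8e-06). These 2 and 3 members stand beside 36.8% higher and 35.1% lower among all genes. ABCC1 was called higher in OVCAR8 without parental control replicate 2, by 0.34 (edgeR adjusted p = 2.4e-07). Without that replicate the values of ABCC4, ABCC3, ABCG2 and ABCC10 were 0.68, -7.46, -1.53 and -0.62, and each was still called.

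Summed over the 9 genes, the transporter transcripts of 5637 were higher on neratinib in every library. In 5637 it was 38.1 ± 0.692 RPKM in parental control and 64.9 ± 1.9 RPKM on drug (SD, n = 3). In 5637 NR cells it was 41.8 ± 0.708 RPKM without and 70.2 ± 2.24 RPKM with the drug. ABCC3 made up 13.1% of the pool in parental control and 39.4% on drug, and 21.3% and 41.6% in NR cells, while the share of ABCC1 went from 47.2% to 32.6% and from 40.3% to 26.6%. In OVCAR8 the sums were 35.7 ± 8.99 RPKM in parental control, with 25.3 RPKM in replicate 2, 47.1 ± 0.135 RPKM on drug, 39.5 ± 0.497 RPKM in NR control and 41.4 ± 0.341 RPKM in NR cells on drug (SD, n = 3). ABCC1 held 54.4 to 63% of it over the OVCAR8 groups and ABCC3 at most 0.334%. These sums are given as a description, with no test.

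**Figure D5:**
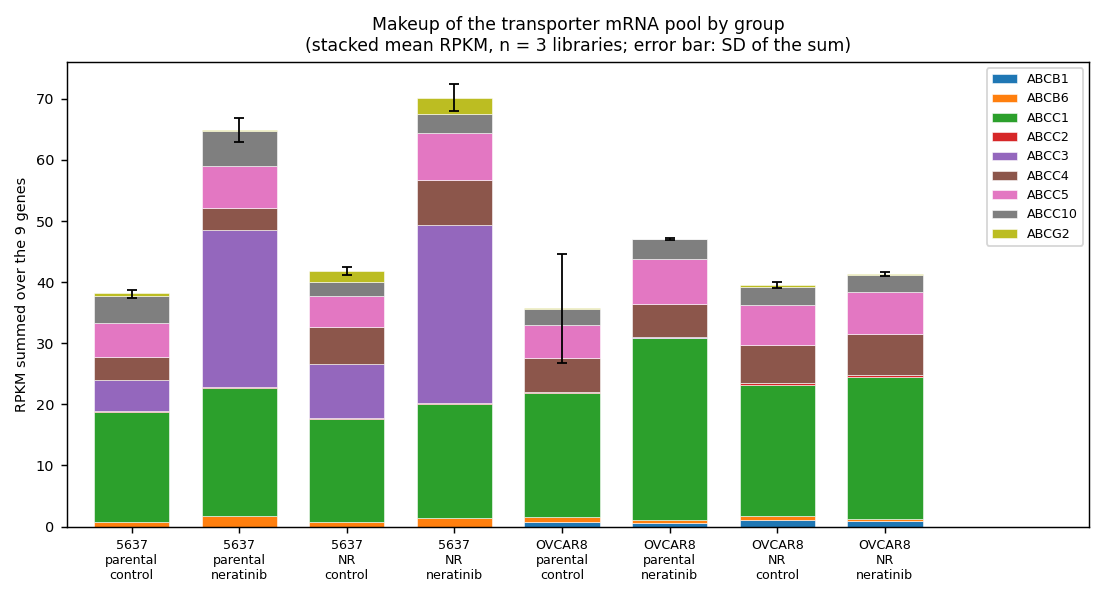
RPKM summed over the 9 genes by group, stacked by gene as means of 3 libraries, with the SD of the sum as error bar. The 5637 bars on drug reach 64.9 and 70.2 RPKM with ABCC3 as the largest block, and the OVCAR8 bars consist mostly of ABCC1.

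The other measured genes of transport and detoxification moved beside the members as follows. NRF2, encoded by NFE2L2, is a transcription factor that switches on glutathione synthesis and antioxidant genes. Of 12 tested NRF2 targets, 10 rose and 0 fell by edgeR with neratinib in 5637 parental cells (median 1.20, where 23.9% and 23.5% of all genes did) and 11 rose and 0 fell in NR cells (median 1.13, against 18.4% and 21.1%), with 0 falls in either at an unadjusted p under 0.05 and 0 by DESeq2. The cystine importer SLC7A11 rose by 3.28 and 2.60, the heme oxygenase HMOX1 by 2.03 in parental cells, and the aldo-keto reductase AKR1C1, whose near-identical relatives make its counts uncertain, by 2.69 in NR cells. In OVCAR8 parental cells 6 rose and 0 fell by edgeR (0 at an unadjusted p under 0.05, 0 by DESeq2, median 0.26), against 16.2% and 16.3% of all genes, or 8 and 0 without parental control replicate 2 (median 0.42), against 24.3% and 24.9%, with SLC7A11 at 3.15. In OVCAR8 NR cells 2 rose and 1 fell, against 0.642% and 0.747% of all genes, or 4 and 1 without that replicate, against 9.39% and 11.9%, with SLC7A11 at 1.58. NFE2L2 itself rose by 0.35 (edgeR adjusted p = 0.00014) in parental and by 0.35 in NR 5637 cells and by 0.34 in OVCAR8 parental cells, and was at 0.18 in OVCAR8 NR cells, not called. Between the states the list was split: in 5637 6 were higher and 4 lower without drug (28.4% and 28% of all genes), and in OVCAR8 on drug 1 was higher and 6 lower with all libraries (median -0.43, against 14.6% and 16.4%) and 1 and 6 without that replicate (median -0.44, against 26.8% and 28.7%), SLC7A11 at -1.73 among them.

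Other ABC genes changed in both directions. Of 22 tested in 5637, 7 rose and 3 fell with neratinib in parental cells (23.9% and 23.5% of all genes), where the cholesterol exporters ABCG1 and ABCA1 rose by 2.02 and 1.68 and the lipid transporter ABCA12 by 0.97. In NR cells 5 rose and 3 fell (18.4% and 21.1% of all genes). The responses of ABCG1 and ABCA1 were smaller there, by -2.15 and -1.33 (edgeR adjusted p = 2.2e-06 for both), and on drug NR cells held less of them, by -2.68 and -1.98. Without drug 7 were higher in NR cells and 5 lower (28.4% and 28% of all genes), among them the ribosome recycling factor ABCE1 at 0.81 and ABCA12 at -1.22. Of 24 tested in OVCAR8, 4 rose and 4 fell in parental cells (16.2% and 16.3% of all genes), or 5 and 6 without parental control replicate 2 (24.3% and 24.9%), with the lamellar body transporter ABCA3 at 0.67 and ABCE1 at -0.53. In OVCAR8 NR cells 0 passed in either direction by edgeR with all libraries (1 higher and 3 lower at an unadjusted p under 0.05, 0 by DESeq2), where 0.642% of all genes rose and 0.747% fell. Without parental control replicate 2 there, 1 rose and 3 fell, against 9.39% and 11.9%.

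Genes that regulate the transporters or act with them showed a similar mixture. Of 25 regulators tested in 5637, 9 rose and 7 fell with neratinib in parental cells (23.9% and 23.5% of all genes) and 9 and 9 in NR cells (18.4% and 21.1%), with the stress factor ATF4 at 1.04 and 1.01 and MYC at -1.16 and -0.79. YBX1, a Y-box factor long studied in ABCB1 control, fell by -0.86 and -0.42. Without drug 6 were higher and 11 lower in 5637 NR cells (28.4% and 28% of all genes), with EPAS1 at 1.22 and RXRA at -0.76. In OVCAR8 9 of 24 rose and 2 fell in parental cells (16.2% and 16.3% of all genes), or 12 and 3 of 25 without parental control replicate 2 (24.3% and 24.9%), the hypoxia factor EPAS1 by 2.56 at the top. Of 23 conjugation enzymes in 5637, 9 rose and 5 fell in parental and 14 rose and 2 fell in NR cells, beside the same shares of all genes as for the regulators. In NR cells UGT1A1 and UGT1A6, glucuronosyltransferases that share exons and whose counts are therefore uncertain, rose by 1.41 and 1.30. The glutathione synthesis genes GCLC and GCLM, which are also in the NRF2 list, rose by 1.12 and 1.14 in parental cells. Without drug 3 enzymes were higher and 10 lower in NR cells, with the glutathione transferase GSTP1 at -0.99. In OVCAR8 3 of 20 rose and 3 fell in parental cells with all libraries, and 10 rose and 3 fell without parental control replicate 2, beside the shares of all genes given for the OVCAR8 regulators.

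Among 17 other drug transport genes tested in 5637, 5 rose and 5 fell with neratinib in each state (23.9% and 23.5% of all genes in parental cells, 18.4% and 21.1% in NR cells). The organic anion transporter SLCO4A1 fell by -2.21 and -2.41 and the nucleoside transporter SLC29A1 by -1.12 and -0.75. Without drug 10 were higher and 5 lower in NR cells (28.4% and 28% of all genes), with SLCO4A1 at 4.23 and the prostaglandin transporter SLCO2A1 at -3.81. The major vault protein MVP was at -2.64. In OVCAR8 4 of 15 were higher and 0 lower by edgeR in NR cells without drug (1 at an unadjusted p under 0.05, 0 by DESeq2), SLCO4A1 at 0.73 among them, where 4.94% of all genes were higher and 4.91% lower. Without parental control replicate 2, 6 were higher and 1 lower, against 11.4% and 11.4%.

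Cell identity markers moved with the resistant state. All 8 urothelial markers averaged at least 1 CPM over the 5637 libraries, and their summed level was 4760 to 4860 CPM in parental control, 5080 to 5380 CPM in parental neratinib, 823 to 869 CPM in NR control and 1530 to 1650 CPM in NR neratinib. KRT5 made up most of this sum, with means of 3950 CPM in parental control and 547 CPM in NR control. In NR against parental 5637 cells without drug 6 of the 8 markers were lower, the keratins KRT13 (-9.99, from a mean of 128 to 0.121 CPM), KRT17 (-3.23) and KRT5 (-2.87) foremost, and 2 were higher, PPARG (0.57) and UPK2 (0.71). Among all genes 28% were lower and 28.4% higher in that comparison. In OVCAR8 3 of the 8 urothelial markers averaged at least 1 CPM. Of 6 Müllerian and ovarian markers, 3 averaged at least 1 CPM in OVCAR8, led by MSLN and PAX8. Their summed level there was 290 to 331 CPM in NR control against 424 to 535 CPM in parental control, where MSLN was at 313 ± 80.5 CPM (SD, n = 3). EMX2 was essentially undetected in OVCAR8, with a group mean of at most 0.00816 CPM. The 6 markers of this list summed to 151 to 414 CPM in 5637, mostly the mucin MUC16, with SOX17 at 0. In 5637 NR against parental cells without drug, PAX8 (mean 12.1 to 44.2 CPM) and WT1 (7.26 to 31.7 CPM) were higher, and MUC16 (278 to 83 CPM) and MSLN (-3.89 on the log2 scale) were lower. The 2 collagens of the fibroblast list were lower in 5637 NR cells without drug, COL1A1 by -1.62 and COL1A2 by -7.45. COL1A2 went from a mean of 12.7 to 0.0687 CPM, under the level of 3 counts a library, so the size of its change is uncertain. The sum of the fibroblast list was 42.3 to 47.4 CPM against 146 to 152 CPM. In OVCAR8 that sum was 857 to 949 CPM in NR control against 1150 to 1260 CPM in parental control. Nearly all of it was COL1A1, with means of 910 and 1200 CPM. These OVCAR8 marker sums include parental control replicate 2 and are given as a description, with no test. Leukocyte markers summed to at most 0.174 CPM in 5637 and 3.62 CPM in OVCAR8, with PTPRC and CD3E at 0 in OVCAR8, and endothelial markers to at most 1.06 CPM. The part of these shifts in the transporter differences was not tested.

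Across the 24 libraries, with each line centred on its own mean, the members did not move as 1 block. ABCC4 and ABCG2 had a Pearson r of 0.90, ABCC3 and ABCC5 of 0.74, ABCC1 and ABCC5 of 0.73, and ABCC10 and ABCG2 of -0.79, computed on log2(CPM + 0.5). Among 9634 genes searched, those most like a member were ZBTB4 (0.958) and WASF2 (0.956) for ABCC1, and CARS (0.983), a transfer RNA charging enzyme, and TRIM16L (0.982) for ABCC3. For ABCC4 they were KIAA1731 and MYBL1 (both 0.977), for ABCC5 ARHGAP21 (0.948) and ARNT (0.937), and for ABCC10 KLF13 and ANO8 (both 0.972). Within a line, r of these genes with their member was 0.931 to 0.997 in 5637 and 0.911 to 0.969 in OVCAR8. All these values include OVCAR8 parental control replicate 2, where several members were low, and were not computed without it. Its part in them was not tested. The libraries of a group share their treatment and culture, so these values describe the 8 groups more than 24 separate observations.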

How the data were processed

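The authors deposited whole read counts per gene for 24 libraries, made from stranded TruSeq mRNA libraries read from both ends on a HiSeq3000, as the labels' protocols state. The tools STAR 2.5.3a, featureCounts 1.15.2, FastQC and DESeq2 1.18.1 and the build hg19 are named in the submitters' processing notes, with no statement of whether counting used strand, so overlapping genes are uncertain.

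Each line was fitted with its 12 libraries and 4 group means, and the lines were compared in a fit of all 24 (20250 genes tested), by edgeR 4.0.16 in R 4.3.3 with filterByExpr, TMM scaling, the quasi-likelihood F-test and Benjamini-Hochberg adjustment over all genes tested. CPM used the library total and RPKM the deposited gene length. The SE is the size of the log2 fold change over the root of F. Alternatives were DESeq2 1.42.0, its size factors in edgeR, library size only, 2 filters (1 CPM in 3 libraries, and none), replicate number as a block, TMM-scaled levels and omission of each library. The fit was also run on simulated counts, drawn with 1 spread for all genes and with no library that stood apart. That simulation therefore does not cover the OVCAR8 data with parental control replicate 2. Libraries with identical counts were not found (0 pairs).

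The 9 members and all lists were chosen with earlier results of these data known. All members are named, and from each other list examples come from up to 3 rising and 3 falling genes of largest change that passed the test and averaged at least 5 CPM. NFE2L2, markers and overlapping genes were added to these after their values were seen. The 2 genes most like a member were taken for members with at least 5 CPM, among genes with at least 10 CPM. Some list genes are not reported here. Motifs were searched in RefSeq promoter windows. Floors cover counting error only, while the SE of a fold change also takes in the fitted spread between libraries.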

Additional observations from a re-analysis of the deposited data

Results flagged for a closer look

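Of the differences between effects that were tested, 8 among the members passed edgeR's test at an adjusted p under 0.05. In 5637 the response to neratinib differed between NR and parental cells for ABCG2 (1.84), ABCC4 (0.34) and ABCC3 (-0.66). In OVCAR8 it differed for ABCC3 (-1.14), a call that most omissions of 1 library ended. The parental response differed between OVCAR8 and 5637 for ABCB6 (-1.57). The difference between NR and parental cells without drug was unlike in the 2 lines for ABCG2 (-1.31), ABCC4 (-0.51) and ABCC10 (1.04). Their causes were not tested.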

How the results depend on the processing

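The members' 109 fold changes were recomputed under 6 other settings. Of 654 values, 8 changed sign, 25 calls were lost and 10 gained, and the lost calls are named beside each gene except those of the replicate block, which follow in the next paragraph. All 8 sign changes were in values that were not called. ABCB6 moved to 0.01 in the 5637 interaction (library size only, and no filter), to 0.03 (library size only) and 0.00 (filter of 1 CPM) in the NR difference between lines, and to 0.05 between parental controls of the lines (replicate block). ABCB1 and ABCB6 moved to -0.01 in the OVCAR8 interaction (library size only), and ABCC10 to 0.02 in the drug response between lines (filter of 1 CPM). Counts of calls that moved by more than 1.5 times under these settings were those of OVCAR8. With DESeq2, 800 genes were called for the NR drug effect in place of 251, and 2520 for the interaction in place of 1595, with 0 members there, as with no filter.

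Same-numbered libraries deviated together by over 0.1 in 6 of 18 pairs in each line (r from -0.47 to 0.33 in 5637 and from -0.26 to 0.22 in OVCAR8), so the numbers were not used as pairs. With a replicate block, OVCAR8 gave 3 member calls for the parental drug effect (6 without), 0 for the NR drug effect with 98 genes in all, and 0 for the interaction. Of the 25 lost calls, the block accounts for the loss of ABCB1, ABCC5 and ABCG2 (OVCAR8 parental drug) and of ABCC3 (OVCAR8 NR drug and interaction), and in 5637 of ABCC1 and ABCC4 (parental drug, adjusted p = 0.075 and 0.054 by edgeR), ABCC4 (NR drug, 0.068) and ABCB6 (NR against parental on drug, 0.056).

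Omission of 1 library at a time moved the member calls of the 5637 parental drug effect from 7 to between 3 and 6. Its calls among all genes moved from 8665 to between 7403 and 7778. Called genes of the 5637 interaction moved to between 1840 and 3341. In OVCAR8 the ranges for members and for all genes were 2 to 7 and 4207 to 9117 for the parental drug effect, 0 to 3 and 43 to 3950 for the NR drug effect, 0 to 2 and 993 to 4225 for NR against parental without drug, 3 to 7 and 3933 to 10286 on drug, and 0 to 3 and 790 to 6076 for the interaction. Each upper end was reached without parental control replicate 2. Between lines, the drug response gave 1 to 2 members and 1550 to 3869 genes.

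Omissions changed the sign of 21 fold changes, of which 0 were called with all libraries. These ranged for ABCC2 from -0.15 to 0.26 (5637 parental drug), -0.13 to 0.23 (5637 NR against parental), -0.39 to 0.02 (OVCAR8 NR drug) and -0.06 to 0.34 (line controls). ABCB6 ranged from -0.11 to 0.13 and -0.07 to 0.22 (interactions in 5637 and OVCAR8), -0.18 to 0.01 (line controls) and -0.13 to 0.07 (NR between lines). ABCC10 ranged from -0.08 to 0.11 (5637 interaction), 0.00 to 0.28 (OVCAR8 NR against parental) and -0.17 to 0.09 (drug between lines). ABCC1 ranged from -0.01 to 0.06 (5637 NR drug), -0.12 to 0.15 (OVCAR8 NR against parental) and -0.04 to 0.27 (NR between lines). ABCC4 ranged from -0.02 to 0.22 (OVCAR8 NR against parental) and -0.12 to 0.16 (drug between lines), and ABCB1 from -0.05 to 0.15 (OVCAR8 interaction). ABCC5 ranged from -0.01 to 0.09 (OVCAR8 NR drug), -0.16 to 0.11 (line controls) and -0.04 to 0.26 (drug between lines), and ABCC3 from 0.00 to 0.27 (drug between lines). The causes were not tested. Depth limits ABCB1 in 5637, ABCC2 in both lines, and ABCC3 and ABCG2 in OVCAR8, where a library holds few counts of them. It also limits ABCG2 in 5637 parental neratinib, at 26 to 36 counts a library.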
